A study of Mus musculus with 8 samples.

Results

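Junctions of an adeno-associated virus (AAV) donor with mouse DNA outside the target were described for 4 genes better known from nerve and muscle than from liver: *Prdm12*, *Rbm20*, *Cntnap5b* and *Dpp6*. The members were chosen by measured values, namely that each gene held an interval of insert-joined reads in each of the deposited pools, so their counts, shares and ratios are given as a description and no test was run on them. The gRNA pool listed 33 intervals, of which 30 lay outside albumin (*Alb*) and are called off-target here, and the scramble pool listed 24, of which 23 were off-target. The 4 genes held 1 interval each per pool, and all 4 intervals were listed in both pools. With 49997 RefSeq genes, 15 gRNA and 13 scramble off-target intervals lay in a gene span, so the 4 genes account for part of the genic intervals and not for all of them. The data hold no expression values, so that the genes are silent in liver was not checked.

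The libraries were 5 from mice that received the *Alb* gRNA and 3 from mice that received a scramble gRNA, which was designed to match no mouse sequence. Both groups received 2 vectors, one with *Streptococcus pyogenes* Cas9 under a hybrid liver promoter and one with a promoterless DsRed donor and a U6-driven gRNA cassette, with the donor flanked by inverted copies of the *Alb* target site. The labels give neither strain, age nor dose, and the study's methods describe systemic injection of newborn C57BL/6J mice for liver work with the DsRed donor. The source label names blood and the study describes liver DNA, and DNA counts hold no marker that could settle the tissue. Each pool was deposited as 1 column of counts, so values of single mice were not analysed here. Intervals given with a value cover counting error of the pool, with each read piece taken as independent. Copies of 1 molecule may count repeatedly, which would make these intervals too narrow. The spread between mice is unknown.

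HITI, homology-independent targeted integration, relies on Cas9 to open the genome and the donor at the same target sequence, and on non-homologous end joining to seal the donor into the break. A read that holds donor on one side and mouse sequence on the other was taken as a junction, and the mouse piece gave its place. *Prdm12* encodes a zinc finger regulator of the PRDM family needed for pain-sensing neurons, *Cntnap5b* a neurexin-like membrane protein of the contactin-associated family, *Dpp6* an auxiliary subunit of A-type potassium channels in neurons, and *Rbm20* a splicing regulator of titin in heart muscle.

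The interval in *Prdm12* held the most off-target counts in both pools. In GRCm38, the build of the tables, *Prdm12* spans chromosome 2 from 31635026 to 31655795, and the interval ran from 31643992 to 31644144 with 8399 counts with gRNA. With scramble it reached 31644145, 1 bp further, and held 5515 counts. The count with gRNA was thus the higher one, in a pool with more libraries and more counts. The interval began 8966 bp inside the annotated span and 3955 bp after the start site listed for the gene, at 31640037, among the promoters used here.

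*Rbm20* ranked behind *Prdm12* among the 4 genes. It spans chromosome 19 from 53660989 to 53867083, and its interval ran from 53754450 to 53754604 in both pools. It held 6419 counts with gRNA, the third of the off-target intervals, and 3982 counts with scramble, the fourth. The same 155 bp lay 206 bp inside the lncRNA gene *Gm30943*, which spans 53754244 to 53758239 within *Rbm20*, so these counts cannot be divided between both annotations.

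*Cntnap5b* held the eighth highest off-target count in each pool. The gene spans chromosome 1 from 99772246 to 100490599. Its interval ran from 100362535 to 100362681 and held 3162 counts with gRNA. With scramble it began 1 bp later, at 100362536, and held 2076 counts. The interval lay 590.3 kb from the start of the span, in its distal part.

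*Dpp6* held far fewer counts than the other 3 genes. It spans chromosome 5 from 26817357 to 27727500, and its interval ran from 27213344 to 27213489 with 366 counts with gRNA. With scramble it began at 27213345 and held 358 counts, nearly as many from fewer libraries. Its rank was 12 in both pools. *Dpp6* lies on the chromosome of the target gene, and its interval was 63.2 Mb from the *Alb* span.

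**Figure D1:**
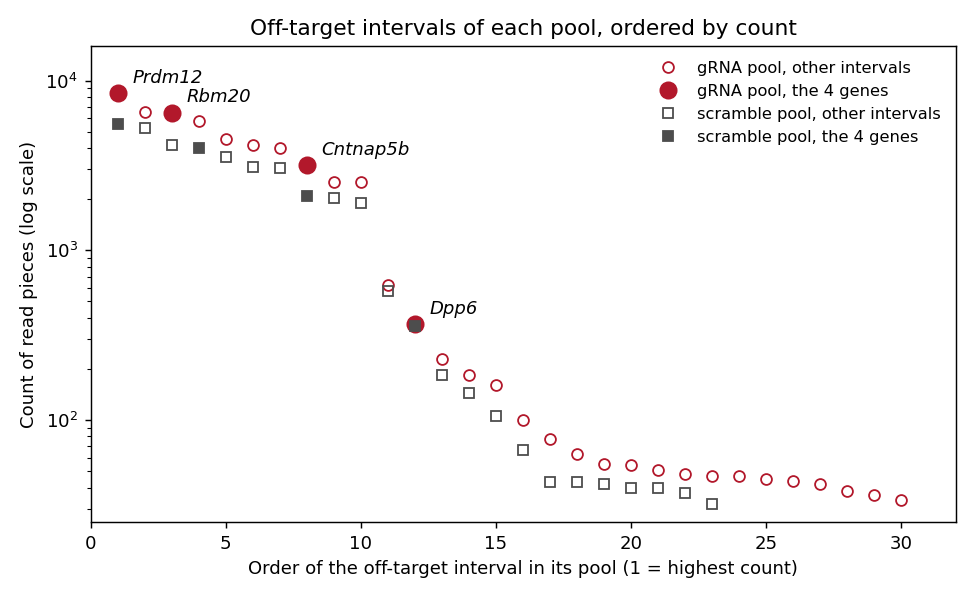
Counts of read pieces (log scale) of the off-target intervals in each pool, ordered from the highest. Filled symbols mark the 4 genes, open symbols the other intervals, circles the gRNA pool and squares the scramble pool; *Prdm12* is first in both pools, and *Dpp6*, at 366 and 358 counts, lies below the step that separates the 10 highest intervals from the rest.

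A step separated the 10 highest off-target intervals of each pool from the others, and the rule that chose the genes spanned it. *Prdm12*, *Rbm20* and *Cntnap5b* were among the 10 of 20 shared intervals, or 50%, that held at least 1000 counts in both pools, whereas *Dpp6* was not. Just above the step stood *Erc2*, which encodes a presynaptic scaffold protein, with 2532 counts with gRNA and 1893 with scramble. Just below it stood *Eml6*, a microtubule-associated protein gene, with 622 and 573 counts, followed by *Dpp6*. The next interval after *Dpp6*, outside annotated genes on chromosome 7, had 229 and 185 counts.

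Other genes held intervals with similar counts, so holding such an interval is not particular to the 4 genes. Roles of these genes in liver were not checked. Of the 10 highest intervals in each pool, 6 lay in gene spans. The 3 that are not members were in *Gm36264* (4514 counts with gRNA and 3555 with scramble), *Asic2*, an acid-sensing ion channel gene of neurons (2532 and 2034), and *Erc2*. In all, 11 gRNA and 9 scramble off-target intervals lay in genes other than the 4.

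Genes known for hepatocyte function were looked up as well. From a list of 40 such genes, 2 held an off-target interval with gRNA and 0 with scramble, where over all 49997 RefSeq genes 22 or 0.044% held one with gRNA and 19 or 0.038% with scramble. The 2 on the list were *Trf*, which encodes the iron carrier transferrin, with 48 counts, and *Afp*, the fetal albumin relative, with 45 counts. Neither was listed with scramble, where the lowest listed count was 32. *Afp* is on chromosome 5, as is *Alb*. Off-target here means only outside the *Alb* span, so the *Afp* interval is not shown to be remote from the target. The gRNA off-target interval nearest to that of *Dpp6* on chromosome 5 lay 63.2424 Mb from it, just before the *Alb* span at 63.2474 Mb. An interval called off-target with gRNA can thus lie close to the target. A further interval, with 160 counts with gRNA and 105 with scramble, lay in the *Ugt1a* cluster of bilirubin- and drug-conjugating enzymes, which was not on the list. With 2 genes at these counts, nothing is read from the list. The imprinted *Rian* locus, known for AAV insertions in mouse liver tumours, held no interval in either pool (0 of 5 genes listed). Of 34 annotated relatives and partners of the 4 genes, among them other Prdm, Cntnap and Dpp genes and the Kcnd channels that *Dpp6* binds, 0 held an interval in either pool. At the share of all genes given above, lists of this length would hold about none, so nothing is read from these zeros. A minimum count behind the tables is also not known.

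The 4 genes differ widely in length. *Dpp6* spans 910.1 kb and *Cntnap5b* 718.4 kb, longer than 99.7% and 99.5% of 21896 protein-coding genes. *Rbm20* spans 206.1 kb, longer than 95.6%. *Prdm12*, which held the highest count, spans 20.8 kb, close to the median of 17.1 kb. The longest gene of the set therefore had the fewest counts and the shortest the most. With 4 genes chosen on their counts, this order is a description.

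The intervals did not lie at a common place in the genes. The midpoint was at 43.5% of the span in *Prdm12*, 45.4% in *Rbm20* and 43.5% in *Dpp6*, but at 82.2% in *Cntnap5b*, counted from the start of the span in the direction of transcription. In *Prdm12*, *Cntnap5b* and *Dpp6* the interval did not lie within 1 kb of a start site that the promoter table gives for the gene. The table gives none for *Rbm20*, so its interval could not be assessed. In *Dpp6* the nearest of its own listed starts lay 48.6 kb away, and in *Cntnap5b* 590.1 kb.

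**Figure D2:**
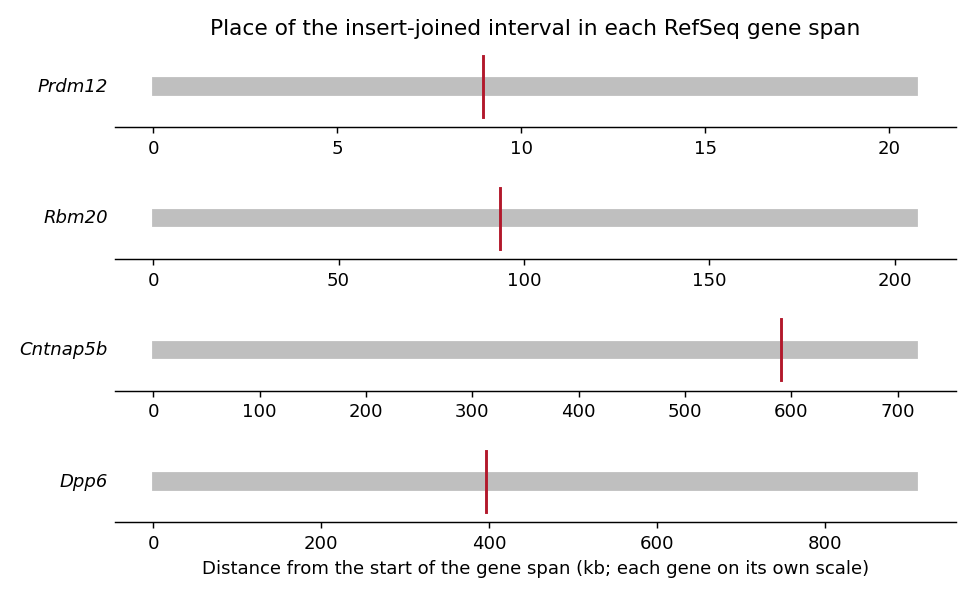
Place of the insert-joined interval (red line) in the RefSeq span of each gene (grey bar), as distance from the start of the span in kb, with each gene on its own scale. The intervals of *Prdm12*, *Rbm20* and *Dpp6* lie slightly before the middle of the span and that of *Cntnap5b* at 82.2% of it.

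Exon or intron was not assigned, because the exon positions used here belong to another build, GRCm39, and builds were not converted. The GRCm39 annotation gives the share of each gene's own span in that build that is exonic in any transcript. For *Prdm12* that span is 16078 bp, shorter than the 20770 bp of the RefSeq span used above. The exonic share was 17.4% in *Prdm12*, with 5 exons in the canonical transcript, and 4.08% in *Rbm20* with 14 exons. In *Dpp6* it was 1.40% with 26 exons and in *Cntnap5b* 1.38% with 24. Most of each span is thus intron, which does not place the single interval.

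The width and the edges of the intervals were not used by the rule. In the 4 genes the widths ran from 146 to 155 bp with gRNA and from 145 to 155 bp with scramble, in *Prdm12* as in *Dpp6*, which held far fewer counts. The 7 other intervals with at least 1000 counts measured 150 to 243 bp with gRNA and 150 to 209 bp with scramble. Among the other intervals with lower counts, 14 of 19 with gRNA and 6 of 12 with scramble were at most 3 bp wide. The study kept only mouse pieces above a minimum length that exceeds 3 bp, so such a width is not the length of the pieces. What the width measures is not known. *Dpp6* had the width of the high intervals, as did *Eml6* with 152 and 156 bp and, at lower counts, *9830107B12Rik* with 152 and 137 bp.

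The edges were nearly the same in both pools. *Rbm20* had both edges in the same place, *Prdm12* differed by 1 bp at its end, and *Cntnap5b* and *Dpp6* differed by 1 bp at their start. All 4 intervals thus agreed within 1 bp, as did 12 of all 20 shared off-target intervals, or 60%. Both edges were identical in 1 of the 4 and in 7 of the 20, or 35%. Among the other shared intervals, 4 of the 7 with at least 1000 counts and 4 of the 9 with fewer agreed within 1 bp. Those 4 with fewer counts were only 2 or 3 bp wide. Overlapping intervals that narrow can hardly differ by more than 1 bp. The 60% and the 35% include them, so neither is a like background for the wider intervals of the 4 genes. The largest differences at a shared interval were 147 bp in a low one and 34 bp in a high one.

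Shares were set against the off-target counts, 50414 with gRNA and 36317 with scramble. *Prdm12* held 16.7% of them with gRNA (95% Wilson interval 16.34% to 16.99%) and 15.2% with scramble (14.82% to 15.56%). *Rbm20* held 12.7% (12.44% to 13.03%) and 10.96% (10.65% to 11.29%). For both genes the share of off-target counts was the higher one with gRNA. The *Alb* span held 7726 counts with gRNA and 89 with scramble, so adding them enlarged mainly the gRNA denominator. With the *Alb* counts in the denominator, *Prdm12* held 14.4% with gRNA and 15.1% with scramble, so that its order turned, and *Rbm20* held 11.04% and 10.94%.

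*Cntnap5b* held 6.27% of the off-target counts with gRNA (6.06% to 6.49%) and 5.72% with scramble (5.48% to 5.96%). *Dpp6* went the other way, with 0.726% with gRNA (0.656% to 0.804%) and 0.986% with scramble (0.889% to 1.09%). Together the 4 genes held 18346 counts with gRNA, or 36.4% (35.97% to 36.81%), and 11931 with scramble, or 32.9% (32.4% to 33.3%). Of all listed counts, *Alb* included, they held 31.6% and 32.8%, so that here too the order turned, as it did for *Cntnap5b* at 5.44% and 5.70%. Of the counts inside gene spans they held 62.8% and 58.6%.

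**Figure D3:**
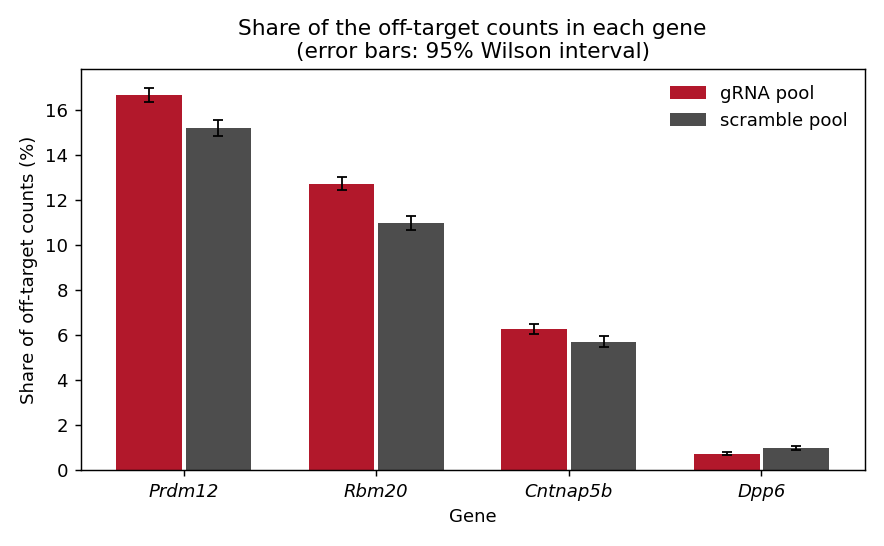
Share of the off-target counts (%) in each of the 4 genes, with the gRNA pool in red and the scramble pool in grey and the 95% Wilson interval as error bars. *Prdm12*, *Rbm20* and *Cntnap5b* have the higher share with gRNA and *Dpp6* with scramble, at 0.726% against 0.986%.

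The gRNA to scramble ratio of raw counts was 1.61 at *Rbm20* (95% interval for counting error 1.55 to 1.68), 1.52 at *Prdm12* (1.47 to 1.58) and 1.52 at *Cntnap5b* (1.44 to 1.61). The ratio at *Dpp6* was 1.02 (0.884 to 1.18). Over all off-target counts it was 1.39 (1.37 to 1.41), and over the 16 shared intervals outside the 4 genes 1.30 (1.28 to 1.32). The first 3 genes thus stood above the ratio of the remaining off-target counts and *Dpp6* below it. Over the 4 genes together the ratio was 1.54 (1.5 to 1.57).

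Among all 20 shared intervals, *Rbm20* had the highest ratio, *Cntnap5b* and *Prdm12* the third and the fourth, and *Dpp6* the last but one. The second was a low interval in the *Ugt1a* cluster, with 160 and 105 counts. The 7 other intervals with at least 1000 counts in both pools had ratios of 1.24 to 1.37. Of the 4 genes, 3 had a larger share of the off-target counts with gRNA than with scramble, against 5 of all 20 shared intervals, or 25%, and 0 of the 7 other high ones. Because the genes were chosen with these counts in view, nothing is read from that difference.

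**Figure D4:**
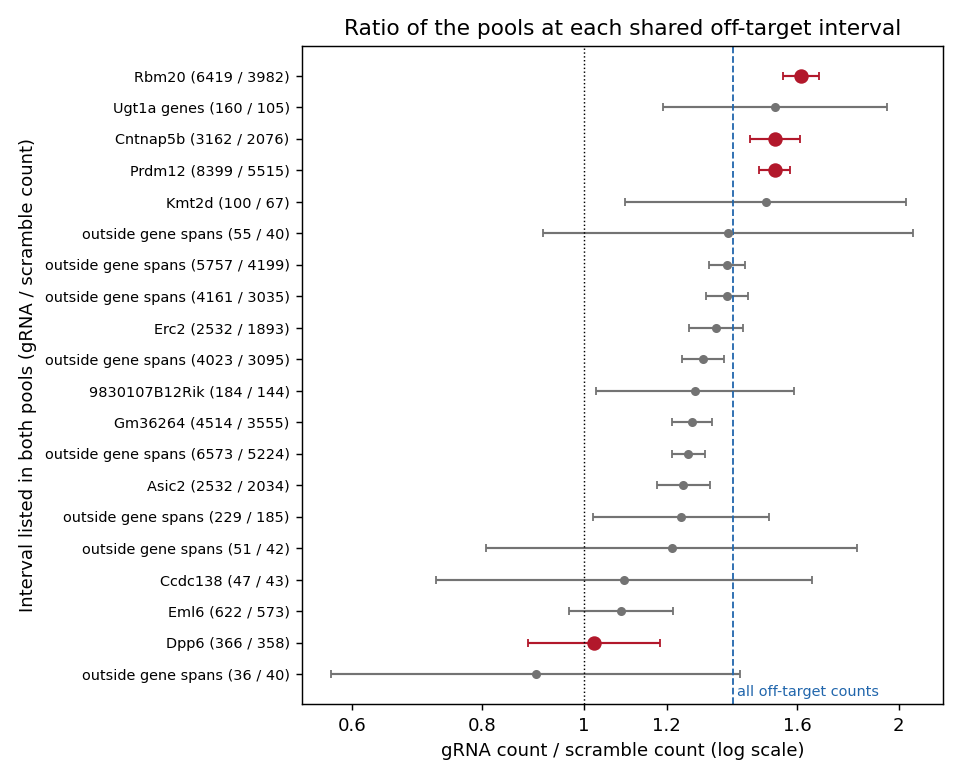
Ratio of gRNA to scramble counts (log scale) at each of the 20 off-target intervals listed in both pools, with 95% intervals for counting error and both counts beside each name. Red points are the 4 genes, grey points the others, the dotted line marks a ratio of 1 and the dashed line the ratio of all off-target counts, 1.39; *Rbm20*, *Cntnap5b* and *Prdm12* lie to its right and *Dpp6* to its left.

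The raw ratio depends on how the pools are scaled, since the gRNA pool joins more libraries and the depth of each is unknown. Divided by the number of libraries, *Prdm12* had 1680 counts per gRNA library and 1838 per scramble library, and *Rbm20* 1284 and 1327. *Cntnap5b* had 632 and 692, and *Dpp6* 73.2 and 119. On this scale the 4 genes were at 0.914, 0.967, 0.914 and 0.613 times scramble in the same order. The counting interval at *Rbm20*, 0.93 to 1.006, included 1. The highest raw ratio of the 20 shared intervals was that of *Rbm20*, and this division keeps their order. All 20 were therefore below 1 on this scale, so nothing is read about the 4 genes from it. *Prdm12*, *Rbm20* and *Cntnap5b* still stood above the ratio of all off-target counts and *Dpp6* below it.

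Within a pool, the genes can be set against each other without any scaling. *Rbm20* held 76.4% as many counts as *Prdm12* with gRNA and 72.2% with scramble. *Cntnap5b* held 37.6% as many in both pools. *Dpp6* held 4.36% with gRNA and 6.49% with scramble. The proportion of *Cntnap5b* to *Prdm12* was thus alike in both pools, and that of *Dpp6* differed most in relative terms, whereas *Rbm20* differed most in percentage points.

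Recurrence between pools was what the rule used, and it was common. Of the 30 gRNA off-target intervals, 20 or 66.7% overlapped a scramble interval, and of the 23 scramble intervals 20 or 87% overlapped a gRNA interval. The 4 genes were 4 of these 20.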

How the data were processed

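Genomic DNA libraries, 5 gRNA and 3 scramble by their titles, had been enriched by the authors for donor, *Alb* and AAV sequence. BWA, bedtools and Picard are named in the submitters' processing notes; versions are not given in the sources used here. The authors aligned reads to the insert, split those with a partial match and placed the outer pieces on mm10. The deposited values are raw counts of read pieces per interval, 1 column per group; the merging rule and any count minimum are not given in the sources used here. No molecular identifiers were used here, so copies of 1 molecule may count repeatedly. The tables along the AAV genome have no genomic position and were not used here.

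Starts were raised by 1. Intervals were matched to RefSeq spans of GRCm38.p6 by an overlap of at least 1 bp. Exon shares came from GENCODE for GRCm39 and were kept apart. Interval sequences are not printed, since the genome used here is of another build. Shares have Wilson intervals and ratios log-scale Poisson intervals, both at 95%. The helpers were tested on simulated data. The members and gene lists were chosen with earlier results of these data known. Named genes are the 4 members, genes overlapping their intervals, and others with at least 1000 counts in both pools; *Eml6*, *9830107B12Rik*, *Trf*, *Afp* and the *Ugt1a* genes were named after their values were seen. Python 3.11.15, numpy 2.4.6, pandas 2.3.3, statsmodels 0.14.6 and matplotlib 3.10.9 were used.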

Additional observations from a re-analysis of the deposited data

How the results depend on the processing

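Over 17 results, 65 alternatives were computed, and 27 of them stayed within the 95% interval of the reported value or within 1.5 times a count. For a ratio, 7 fell on the other side of 1. Per library the ratio was 0.923 over the 4 genes, 0.914 at *Prdm12*, 0.914 at *Cntnap5b*, 0.967 at *Rbm20* and 0.613 at *Dpp6*. The counting interval at *Rbm20* included 1, and all 20 shared intervals were below 1 per library. *Dpp6* also fell below 1 relative to all off-target counts, at 0.736, and relative to the other shared intervals, at 0.786. On those scales the ratio over the 4 genes was 1.11 and 1.18, and without *Rbm20* the raw ratio was 1.5. With *Alb* in the denominator the combined share was 31.6% with gRNA and 32.8% with scramble, so that the order of the pools turned. The gRNA share was 36.9% at a minimum of 100 counts and 35.7% without *Dpp6*, an alternative chosen after seeing the data that gave 31.9% for scramble. Over gene spans alone the shares were 62.8% and 58.6%, and without the highest interval, which is that in *Prdm12*, 23.7% and 20.8%. With each interval counted once they were 13.3% and 17.4%. As the rule gives 4 intervals in each pool, that order follows from the 30 and 23 off-target intervals listed.

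The number of intervals in the 4 genes was 4 under each alternative for spans, overlap and merging. Leaving out single libraries was not possible, because the counts are pooled. At 366 and 358 counts *Dpp6* has the widest counting interval of the ratio among the 4 genes.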

Other observations

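The interval in the *Ugt1a* cluster on chromosome 1 was 3 bp wide with gRNA and 2 bp with scramble, at a place where 6 annotated genes overlap. *Kmt2d*, a histone methyltransferase gene, held 100 and 67 counts. These genes were named after their values were seen.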
